A study of Homo sapiens with 4 samples.

Results

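The mitochondrial ribosomal protein genes were examined in SAS cells, a line from a human tongue squamous carcinoma, with and without knockdown of the RNA-binding protein STAU1. A gene was counted as a member when it was protein-coding and its symbol started with MRPL or MRPS followed by a number, which held for 78 of the 67008 genes listed, and 86 other symbols with this prefix, mostly pseudogenes, were left out. The groups were 2 libraries from cells that received an shRNA against luciferase by viral infection (shLuc, named Ctrl) and 2 libraries from cells that received an shRNA against STAU1 in the same way (shSTAU1), all labelled as wild type in genotype. Each group rests on a single shRNA, and the labels do not say whether its 2 libraries came from separate cultures, so that p-values measure the spread between these libraries only, which may be technical. The source name and cell line fields of the labels name a mouse fibroblast line, C3H 10T1/2, whereas the organism, growth protocol and design text give human SAS cells. In the counts, the epithelial keratin KRT5 had 3236 and 3387 CPM (counts scaled to a common library size) in Ctrl and 5488 and 4893 CPM in shSTAU1, while of 10 fibroblast markers THY1 and POSTN had no read, COL3A1, DCN and LUM had at most 1 read in any library, and the highest were COL1A1, with 15.7 and 20.2 CPM in Ctrl, and FAP, with 9.07 and 8.55 CPM. The total was 33009118 and 32206655 counts in Ctrl and 35180221 and 36301574 counts in shSTAU1. STAU1 itself had 249 and 251 CPM in Ctrl against 41.6 and 41.5 CPM in shSTAU1, a log2 fold change of -2.59 (SE, the standard error, 0.13, adjusted p = 0.00103, edgeR's quasi-likelihood test), as the labels have it. Without Ctrl replicate 1 its adjusted p was 0.490, in a fit that called no gene.

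Mitochondria carry a ribosome of their own, the mitoribosome, which translates the few proteins encoded by mitochondrial DNA, all of them subunits of the oxidative phosphorylation machinery. Its RNAs are transcribed in the mitochondrion, but all of its proteins are encoded in the nucleus, made in the cytosol and imported. Part of these proteins have a counterpart in the bacterial ribosome (names such as uL3m or bS16m), and the others are particular to mitochondria (names such as mL42). Of the 78 members, 77 were assigned to a subunit, 51 to the large and 26 to the small one. MRPS30 and MRPS18A were placed in the large subunit, as mL65 and mL66, in spite of their symbols. MRPS36 was left without a subunit, since it is now known as KGD4, a component of the alpha-ketoglutarate dehydrogenase complex.

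The members lie on 21 chromosomes, and their promoters are shown because the members were described as a group of genes for 1 complex. RefSeq promoters (GRCh38.p14, from 250 bases before to 50 bases after the start) were matched by symbol for 69 members. The motif CCGGAAG of the ETS family, to which GABPA belongs, was present on either strand in 42.0% of these promoters, against 10.7% of all 27305 promoters. AAGATGGC, a YY1 motif, was present in 20 of the 69 against 3.03% of all, and an NRF1 motif, read as GCGCA, any base and GCGC, in 11.6% against 6.28%. TATAAA, the core of the TATA box, was present in 2.90% against 11.95%. At least 1 of the first 3 motifs was found in 45 members. These are matches of letters and not evidence of binding. Of the 5 members with the largest positive difference, MRPL16, MRPL57 and MRPL36 had at least 1 of these 3 motifs, and MRPL18 and MRPL34 had none. Of the 5 with the largest negative one, MRPL42, MRPL43, MRPL58 and MRPS26 had at least 1, and MRPL55 had none. Windows of 30 bases are given for the most abundant member (MRPL3) and for MRPL16, MRPL57, MRPL36, MRPL42 and MRPL43. They are on the strand of the gene, with the motif or its reverse complement in capitals.
MRPL3, ETS, chr3:131502986-131503015, minus strand: ttgtaaaacgcaCCGGAAGtgggtccggcg
MRPL16, ETS, chr11:59810767-59810796, minus strand: gagtgaacacaaCTTCCGGccccactgagc
MRPL57, NRF1, chr13:21176574-21176603, plus strand: cctcggctctGCGCAGGCGCagtcctctct
MRPL36, YY1, chr5:1799854-1799883, minus strand: ccccccccgccGCCATCTTccttcctggca
MRPL42, YY1, chr12:93467511-93467540, plus strand: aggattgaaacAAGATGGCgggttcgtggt
MRPL43, ETS, chr10:100987498-100987527, minus strand: gtcgtcccggaaCCGGAAGcctcgaggttt

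Of the 78 members, 69 passed the filter on low counts and were tested together with all other genes (14303 in all, holding 99.9% of the counts). Most members were somewhat higher in shSTAU1, and none of them singly passed edgeR's test, fitted without a block, at the threshold used. A positive log2 fold change was found in 64 of the 69, or 92.8%, against 50.4% of all tested genes. The median log2 fold change of the members was 0.31, which is 1.24-fold, with quartiles of 0.15 and 0.43, beside a median of 0.01 over all tested genes. By edgeR's quasi-likelihood test 0 members had an adjusted p under 0.05, where 2.6% of all tested genes did (1.13% higher and 1.48% lower in shSTAU1). At an unadjusted p under 0.05, 18 members were higher (26.1%, background 12.9%) and 0 were lower (background 11.6%). DESeq2 called 6 members, all higher (background 5.4% higher and 4.73% lower): MRPL13, MRPL15, MRPL16, MRPL18, MRPL57 and MRPS35. With a fold of at least 1.5 and an unadjusted p under 0.05, 6 members were higher (background 6.47%). Limma-voom called 0 members (background 1.08% higher and 1.46% lower), as did edgeR with library size scaling (0.923% and 1.9%) and without a filter on low counts (0.00806% and 0.0363%). With the replicate number fitted as a block, 26 members were called, 25 higher and 1 lower (background 15.4% and 13.1%). The block together with a length and GC correction called 15, 14 higher and 1 lower (background 15% and 11.8%). The labels do not state that this number marks a batch. Both shSTAU1 libraries lay above both Ctrl libraries in 40 members (58.0%, background 28.5%) and below them in 2, MRPL42 and MRPL43 (background 28%). CPM are shares of a library, so that more RNA per cell and a shift in the rest of the RNA cannot be told apart. An exact permutation test of 2 libraries against 2 cannot give a two-sided p below 0.333.

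**Figure D1:**
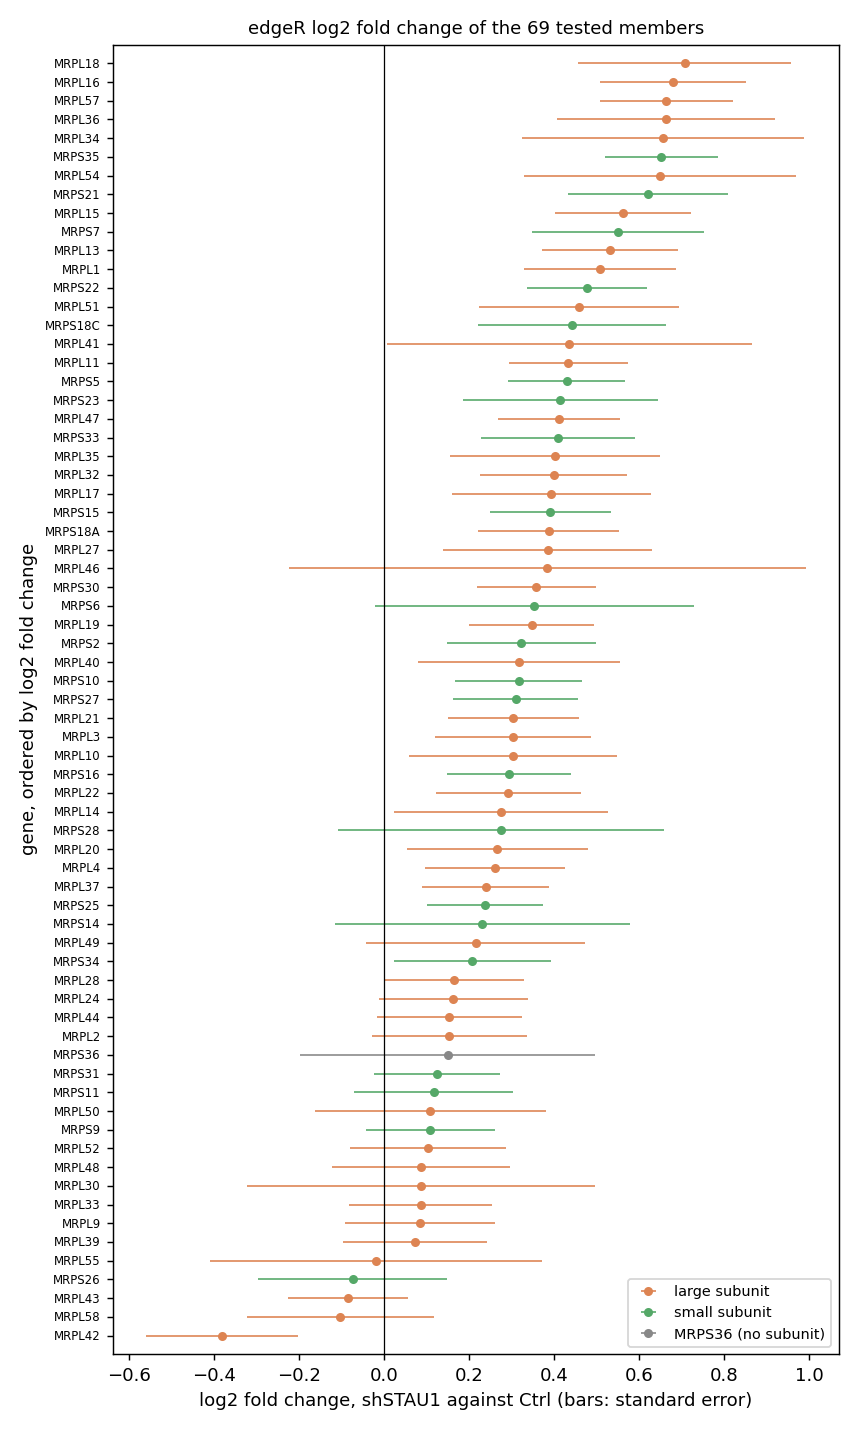
Log2 fold change (shSTAU1 against Ctrl) of the 69 tested members with its standard error, derived from edgeR's test, on the horizontal axis. Members are ordered from the lowest to the highest and coloured by subunit. Values run from -0.38 (MRPL42) to 0.71 (MRPL18), 64 of the 69 points lie above 0, and the 5 highest are of the large subunit, as is the lowest.

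The 2 shSTAU1 libraries differed in how far the members stood above Ctrl. Taken over the tested members, the summed level was 2174 and 2258 CPM in Ctrl, 2482 CPM in shSTAU1 replicate 1 and 3083 CPM in shSTAU1 replicate 2. The median log2 ratio of a member to its Ctrl mean was 0.13 in shSTAU1 replicate 1 and 0.45 in shSTAU1 replicate 2, and 66 of the 69 members were higher in the second of these libraries, against 49.4% of all tested genes. In Ctrl, 42 of the 69 members were higher in replicate 2 than in replicate 1. shSTAU1 replicate 1 exceeded both Ctrl libraries in 41 members and shSTAU1 replicate 2 in 61 (41.3% and 40.2% of all tested genes). The median coefficient of variation of the members was 6.79% in Ctrl and 15.0% in shSTAU1, beside 10.3% and 13.9% for all tested genes. Without shSTAU1 replicate 2 the median log2 fold change was 0.12, with 50 members positive, and 3 members had an adjusted p under 0.05 (edgeR, 7.61% of all genes higher and 6.93% lower), namely MRPL16 and MRPS35 as higher and MRPL42 as lower. Without shSTAU1 replicate 1 it was 0.46, with 66 members positive and 26 called, all of them higher (10.2% of all genes higher and 8.28% lower). Without Ctrl replicate 1 or Ctrl replicate 2 no member was called (0% of all genes without the first, and 0.0935% higher and 0.334% lower without the second).

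**Figure D2:**
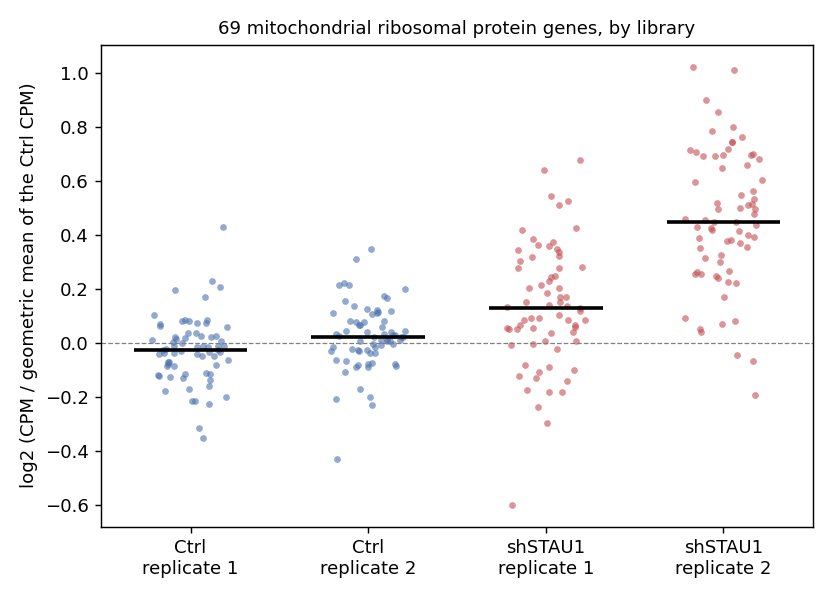
Each point is 1 of the 69 tested members in 1 of the 4 libraries, as the log2 ratio of its CPM to the geometric mean of its Ctrl CPM, and black lines are medians. The points of shSTAU1 replicate 2 (median 0.45) lie higher than those of shSTAU1 replicate 1 (median 0.13), and both medians lie above those of the Ctrl libraries, which are near 0.

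The members with the largest positive log2 fold changes were all of the large subunit. MRPL18 (uL18m), a protein of the central protuberance of the large subunit, had 30.5 and 41.7 CPM in Ctrl and 45.3 and 72.7 CPM in shSTAU1. Its log2 fold change was 0.71 (SE 0.25, adjusted p = 0.139, edgeR). The groups did not overlap, but the spread within each was wide, and shSTAU1 replicate 1 lay close to the higher Ctrl library. MRPL16 (uL16m), whose bacterial counterpart lines the tRNA binding sites, had 15.1 and 13.5 CPM in Ctrl and 22.9 CPM in each shSTAU1 library. Here the 2 shSTAU1 libraries stood at the same level, and the log2 fold change was 0.68 (SE 0.17, adjusted p = 0.073, edgeR). MRPL57 (mL63), a protein particular to mitochondria, had 28.1 and 28.6 CPM in Ctrl and 40.8 and 49.0 CPM in shSTAU1, for a log2 fold change of 0.66 (SE 0.16, adjusted p = 0.0654, edgeR). The Ctrl libraries of MRPL57 were nearly equal and both shSTAU1 libraries stood clear of them. MRPL36 (bL36m), a small zinc-binding protein, had 5.77 and 5.65 CPM against 7.41 and 10.7 CPM, and MRPL34 (bL34m) had 1.96 and 2.14 CPM against 2.76 and 3.71 CPM. In both genes the higher value was that of shSTAU1 replicate 2, the log2 fold change was 0.66, and the adjusted p was 0.168 for MRPL36 and 0.266 for MRPL34. With shSTAU1 replicate 2 left out, MRPL18, MRPL36 and MRPL34 had log2 fold changes of 0.32, 0.37 and 0.42.

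The member closest to the threshold was MRPS35 (mS35), a small subunit protein particular to mitochondria, which is named after its values were seen. It had 44.0 and 41.8 CPM in Ctrl and 67.0 and 67.9 CPM in shSTAU1. The libraries of each group agreed closely and the groups stood apart, with a log2 fold change of 0.65 (SE 0.13, adjusted p = 0.051, edgeR). MRPS35 and MRPL16 thus stood at similar levels in both shSTAU1 libraries. With an adjusted p under 0.10, 5 members would be called, all higher (5.85% of all genes): MRPS35, MRPL57, MRPL16, MRPL15 and MRPS22.

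On the other side, 5 members had a negative log2 fold change. MRPL42 (mL42), a large subunit protein particular to mitochondria, had 51.9 and 46.0 CPM in Ctrl and 32.3 and 42.8 CPM in shSTAU1. Its groups did not overlap, but the log2 fold change of -0.38 (SE 0.18) had an adjusted p of 0.233 from edgeR, and shSTAU1 replicate 1 was the lowest library. The value was -0.18 with this library left out and -0.61 (adjusted p = 0.0139) with shSTAU1 replicate 2 left out. MRPL43 (mL43) had 37.9 and 39.4 CPM against 35.9 and 37.0 CPM, a gap between the groups that was small beside its standard error (log2 fold change -0.09, SE 0.14, adjusted p = 0.743, edgeR). MRPL58 (mL62), a peptidyl-tRNA hydrolase that became part of the large subunit and releases stalled chains, had 17.1 and 13.5 CPM in Ctrl and 12.4 and 16.1 CPM in shSTAU1. MRPS26 (mS26) had 11.4 and 15.3 CPM against 11.6 and 13.7 CPM, and MRPL55 (bL31m) had 1.43 and 1.37 CPM against 1.41 and 1.36 CPM. The groups of MRPL58, MRPS26 and MRPL55 overlapped, with log2 fold changes of -0.10, -0.07 and -0.02, and each of these signs turned when 1 library was left out.

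Divided by role, the medians of both subunits were close. In the large subunit 42 of 46 tested members had a positive log2 fold change, with a median of 0.30, and in the small subunit 21 of 22 did, with a median of 0.32. Within the large subunit the median was 0.33 for the 28 proteins with a bacterial counterpart and 0.23 for the 18 particular to mitochondria. Within the small subunit these medians were 0.32 (13 members) and 0.31 (9 members). Differences between the classes were not tested. The S18 family has 3 members in human mitochondria, of which MRPS18A (mL66) sits in the large subunit, while MRPS18C (bS18m) and MRPS18B sit in the small one. MRPS18A had 16.1 and 16.0 CPM in Ctrl and 21.0 CPM in both shSTAU1 libraries, with a log2 fold change of 0.39 (SE 0.17, adjusted p = 0.203, edgeR). MRPS18C had 26.8 and 33.8 CPM in Ctrl and 33.1 and 49.2 CPM in shSTAU1. The groups of MRPS18A stood apart with almost no spread, and those of MRPS18C overlapped (log2 fold change 0.44, SE 0.22, adjusted p = 0.263, edgeR, with 0.12 when shSTAU1 replicate 2 was left out and 0.71 when shSTAU1 replicate 1 was). Of the exon bases of MRPS18A and MRPS18C, 56.9% and 78.9% are also exon of a gene on the opposite strand, and without a stated strand setting the reads cannot be told apart. MRPS18B had no read in any library.

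The levels of the members, as CPM per kb of transcript averaged over the 4 libraries, spanned from 0.534 to 144 with a median of 22.2. Such RNA levels do not give protein amounts, and the exome capture of the library kit may take up transcripts unequally. MRPL3 (uL3m), which reaches toward the peptidyl transferase centre, was highest at 144 CPM per kb, followed by MRPL13 (108), MRPS22 (89.2), MRPL21 (86.0) and MRPS15 (81.4). In CPM without the division by length, MRPL3 had 197 and 210 in Ctrl and 204 and 297 in shSTAU1. Only shSTAU1 replicate 2 lay above Ctrl, and the log2 fold change of MRPL3 was 0.30 (SE 0.18, adjusted p = 0.344, edgeR), or -0.0030 without shSTAU1 replicate 2. MRPL13 (uL13m) had 92.8 and 98.3 CPM in Ctrl and 119 and 157 CPM in shSTAU1, a log2 fold change of 0.53 (SE 0.16, adjusted p = 0.101, edgeR) that was 0.31 with shSTAU1 replicate 2 left out. MRPS22 (mS22), in which variants are known to cause a combined deficiency of oxidative phosphorylation, had 82.1 and 83.3 CPM in Ctrl and 105 and 126 CPM in shSTAU1. Its groups were apart, as were those of MRPL13, with a log2 fold change of 0.48 (SE 0.14, adjusted p = 0.098, edgeR). MRPL21 (bL21m) had 53.3 and 51.9 CPM in Ctrl and 58.0 and 71.8 CPM in shSTAU1, with a log2 fold change of 0.30 (adjusted p = 0.264) that was 0.13 without shSTAU1 replicate 2 and 0.46 without shSTAU1 replicate 1. MRPS15 (uS15m) had one of 0.39 (adjusted p = 0.146), and the groups of both genes were apart as well. The lowest levels per kb were those of MRPL46 (0.534), MRPL30 (0.795) and MRPL41 (1.14). MRPL46 had only 12, 19, 15 and 28 counts in Ctrl 1, Ctrl 2, shSTAU1 1 and shSTAU1 2, and 71.0% of its exon bases are shared with another gene on the same strand. The part of this overlap in its level was not tested.

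**Figure D3:**
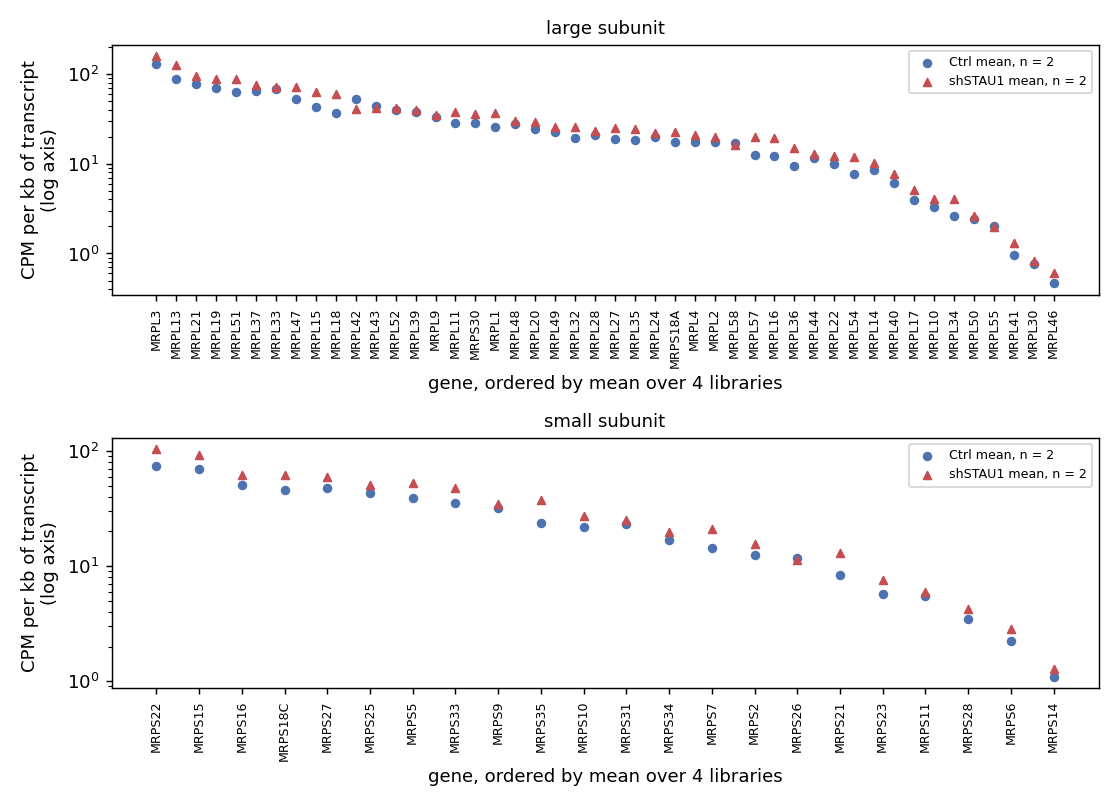
Level of each tested member as CPM per kb of transcript (log axis), as the mean of the 2 Ctrl libraries (circles) and of the 2 shSTAU1 libraries (triangles), ordered within the large subunit (upper panel) and the small subunit (lower panel). Levels fall from 144 for MRPL3 to 0.534 for MRPL46 as means over the 4 libraries, and the distance between circle and triangle is small beside this range.

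A set of 9 members, with proteins of both subunits, could not be tested. MRPL53, MRPL23, MRPS12 and MRPS18B had 0 counts in all 4 libraries, which allows up to 3 counts, or 0.0931 CPM of the total in the shallowest library, for counting error only. MRPS24 had 1, 3, 2 and 1 counts, MRPL45 had 2, 1, 5 and 0, MRPL12 had 0, 1, 6 and 1, MRPS17 had 3, 4, 9 and 2, and MRPL38 had 8, 9, 6 and 2, each in the order Ctrl 1, Ctrl 2, shSTAU1 1 and shSTAU1 2. Since all of these are components of every mitoribosome, the counts were set beside the gene annotation (GENCODE 29). Of these genes 5 share many exon bases with another gene on the same strand, which are 85.7% for MRPS24 (with the readthrough gene URGCP-MRPS24), 68.2% for MRPL12, 67.8% for MRPL38, 52.3% for MRPL53 (with CCDC142) and 31.6% for MRPS17. URGCP-MRPS24 and the partners of MRPL12 and MRPL38 had 0 counts as well, and CCDC142 had 1774. Members with same-strand shares of 31.9% (MRPS6), 55.4% (MRPS28) and 71.0% (MRPL46) nevertheless passed the filter. MRPS18B, MRPL23, MRPL45 and MRPS12 share no exon base on the same strand, but they lie in regions where many genes had few counts. Within 500000 bases of MRPS18B, 30 of the 31 other protein-coding genes had at most 10 counts over the 4 libraries, among them TUBB and FLOT1, which most cells express. At most 10 counts were also found in 15 of 17 genes around MRPL45, 21 of 29 around MRPL23 and 21 of 33 around MRPS12. Over all protein-coding genes this share was 34.7%. Around MRPS12 the genes at 0 included HNRNPL, EIF3K and ECH1, but also IFNL1, LGALS4 and SYCN. Around MRPL23 they included INS, IGF2, TNNI2 and KRTAP5-1, and around MRPL45 PSMB3, MLLT6, GPR179 and TBC1D3. Which of these neighbours SAS cells express was not tested. A count of 0 in these genes is listed here as a value of the table only. Whether the transcripts were absent, or were missed in capture or counting, was not tested.

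**Figure D4:**
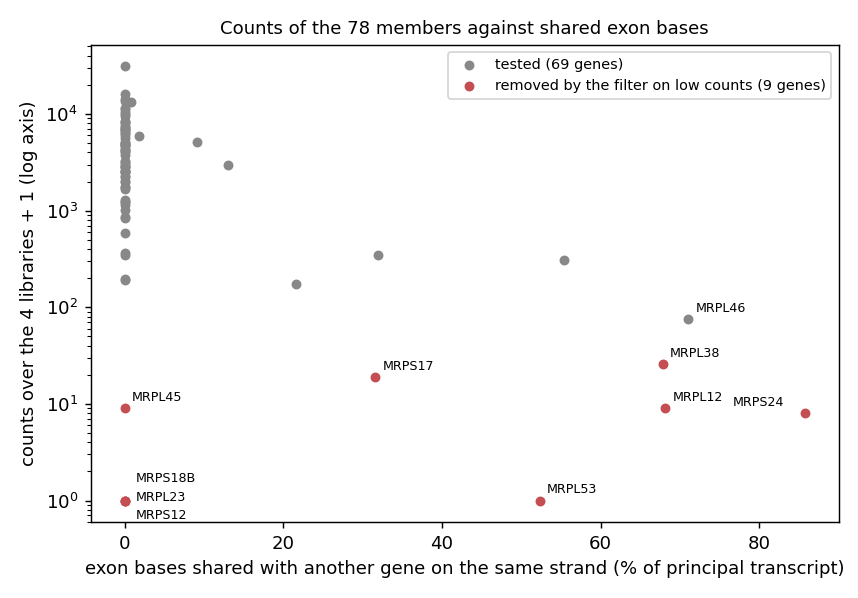
Counts of each of the 78 members summed over the 4 libraries, plus 1 (log axis), against the share of exon bases of its principal transcript that another gene holds on the same strand. The 9 members removed by the filter (red) lie lowest, and 5 of them have 31.6% to 85.7% shared bases, while 4 have none.

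The members are short transcripts, with a median of 1127 bases against 2332 for all tested genes, and the log2 fold changes of this experiment varied with length. Over all tested genes the median log2 fold change was 0.11 in the quartile of the shortest transcripts, then 0.07, -0.01 and -0.08 in the following ones, and 45 of the 69 members fell into the shortest quartile, 21 into the second and 3 into the third. Median GC content was 48.9% in members and 48.7% in all genes. After each library was corrected for its trend with length and GC content, the median of the members was 0.23 (0.02 for all tested genes) and 59 of 69 were positive, with 0 called by edgeR (0.489% of all genes higher and 0.86% lower), while 193 genes were called in all. MRPL57 then had the highest value at 0.69, and MRPL42 the lowest at -0.54.

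**Figure D5:**
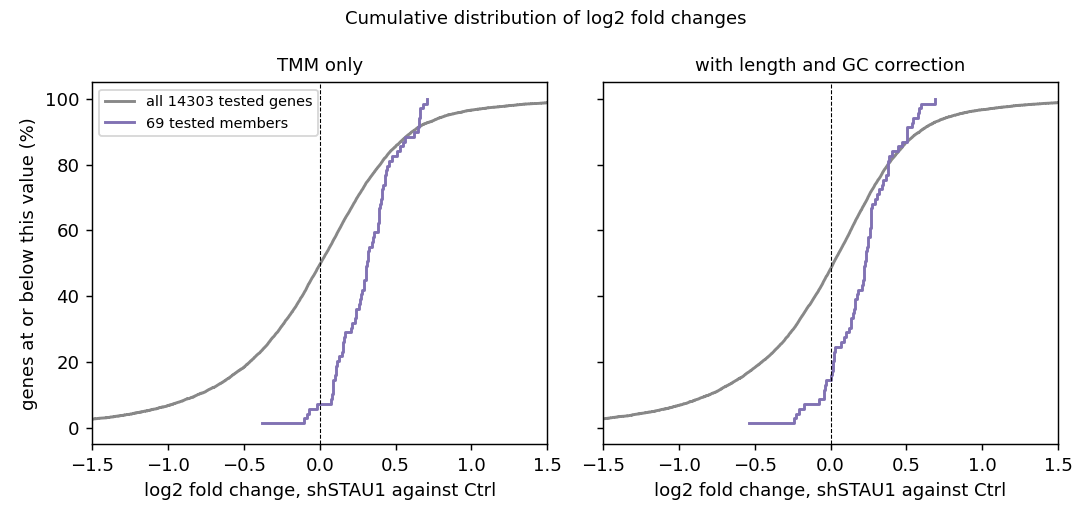
Cumulative share of genes (vertical axis, percent) at or below a log2 fold change (horizontal axis), for the 69 tested members and all 14303 tested genes, with TMM scaling only (left) and after the length and GC correction (right). The curve of the members lies to the right of that of all genes through most of its range, with medians of 0.31 against 0.01 on the left and 0.23 against 0.02 on the right, and it is steeper, so that both tails of all genes extend further.

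The other components of mitochondrial translation were taken as 6 lists (proteins with other names, assembly factors, translation factors, mitochondrial transcription, rRNAs and regulators of the nuclear genes), and 0 of their genes were called at an adjusted p under 0.05 by edgeR (2.6% of all tested genes). The genes named from these lists were chosen for the size of their log2 fold change. Of them, DESeq2 called RMND1, SLIRP, TFB2M and YY1 as higher (adjusted p = 0.0112, 0.0273, 0.00463 and 0.0194) and METTL15 as lower (adjusted p = 0.0445). Over all tested genes DESeq2 called 5.4% higher and 4.73% lower, which is no baseline for genes chosen in this way. DESeq2 calls over the whole lists are not given here. Of 5 mitoribosome proteins that bear other names, 4 had a positive log2 fold change, with a median of 0.50. CHCHD1 had 11.8 and 9.65 CPM in Ctrl and 14.8 and 19.2 CPM in shSTAU1 (log2 fold change 0.67, adjusted p = 0.122), and GADD45GIP1, a large subunit protein at the exit of the peptide tunnel, had 19.7 and 22.8 CPM against 27.1 and 36.2 CPM, with a log2 fold change of 0.58 (adjusted p = 0.127) that was 0.34 without shSTAU1 replicate 2, both from edgeR with the groups apart. Among 24 tested assembly and rRNA modification factors, 13 were positive and 11 negative, with a median of 0.07. METTL15, which methylates the small subunit rRNA, had 17.9 and 16.5 CPM in Ctrl and 8.79 and 11.97 CPM in shSTAU1, a log2 fold change of -0.73 (adjusted p = 0.0995, edgeR). The other factor named by size was MRM2, a methyltransferase of the large subunit rRNA, with under 1 CPM in every library. Its log2 fold change was -1.38 (adjusted p = 0.335, edgeR). This value was -0.66 without shSTAU1 replicate 1 and -2.90 without shSTAU1 replicate 2. At an unadjusted p under 0.05 (edgeR), 3 of the proteins with other names were higher, as were 2 assembly factors and 2 translation factors. So were 2 of the genes of mitochondrial transcription and 1 regulator, while 2 assembly factors and 1 rRNA were lower. Of all tested genes 12.9% were higher and 11.6% lower at this threshold.

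Of 17 tested translation factors, 12 were positive, with a median log2 fold change of 0.17. RMND1, an inner membrane protein needed for mitochondrial translation, had 34.2 and 33.6 CPM in Ctrl and 51.3 and 53.0 CPM in shSTAU1. The groups stood well apart, and the log2 fold change was 0.62 (SE 0.14, adjusted p = 0.0598, edgeR). SLIRP, which binds mitochondrial mRNAs together with LRPPRC, had 131 and 138 CPM against 169 and 235 CPM (log2 fold change 0.58, adjusted p = 0.0968, edgeR, and 0.32 with shSTAU1 replicate 2 left out). Of 5 genes of mitochondrial transcription 4 were positive, with a median of 0.22, led by TFB2M, which opens the mitochondrial promoter. TFB2M had 19.5 and 19.1 CPM in Ctrl and 29.99 and 36.9 CPM in shSTAU1 (log2 fold change 0.79, SE 0.17, adjusted p = 0.0568, edgeR), and TFAM, which packages mitochondrial DNA, had 212 and 219 CPM in Ctrl and 246 and 327 CPM in shSTAU1, with a log2 fold change of 0.41 (adjusted p = 0.167) that was 0.18 without shSTAU1 replicate 2. The mitoribosome RNAs themselves both had a negative log2 fold change. MT-RNR2, the large subunit rRNA, had 31312 and 30988 CPM in Ctrl and 26717 and 22223 CPM in shSTAU1, with the groups apart and a log2 fold change of -0.35 (SE 0.13, adjusted p = 0.150, edgeR, and -0.23 with shSTAU1 replicate 2 left out). MT-RNR1, the small subunit rRNA, had 1635 and 663 CPM against 1045 and 593 CPM, which overlapped, and the sign of its log2 fold change of -0.49 (adjusted p = 0.491) turned without Ctrl replicate 1. Neither rRNA is a target of coding exon capture, so that their CPM do not give their amount beside the mRNAs.

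Transcription factors and coactivators known to act on nuclear genes for mitochondria, of which GABPA, YY1 and NRF1 have a motif described above, had a positive log2 fold change in 6 of 8 tested genes, with a median of 0.09. YY1 had 130 and 148 CPM in Ctrl and 190 and 215 CPM in shSTAU1, a log2 fold change of 0.54 (SE 0.14, adjusted p = 0.0731, edgeR). MYC had 108 and 91.1 CPM against 138 and 105 CPM, overlapping, with a log2 fold change of 0.29 (adjusted p = 0.325) that was 0.093 with shSTAU1 replicate 1 left out and 0.47 (adjusted p = 0.0277) with shSTAU1 replicate 2 left out. GABPA and NRF1 had log2 fold changes of 0.16 and -0.14 with adjusted p of 0.626 and 0.707. Divergent neighbours, protein-coding genes on the opposite strand whose start lies within 1000 bases of the member's, were found for 23 members. Of the 21 tested neighbours 12 had a positive log2 fold change, the median was 0.07, and 0 had an adjusted p under 0.05 (edgeR), with 3 higher and 4 lower at an unadjusted p under 0.05 (background 12.9% and 11.6%). MRPS11 and MRPL46 are each other's neighbours and so are members themselves, both with a positive value.

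For comparison, the other large sets of short transcripts that act beside the mitoribosome were examined in the same fit. Of the cytosolic ribosomal protein genes 75 of 79 tested were positive, with a median log2 fold change of 0.43, and 4 were called, all higher (RPL24, RPL34, RPS15A and RPS4X). Of the nuclear genes for oxidative phosphorylation subunits 61 of 70 were positive, with a median of 0.35, and 5 were called, 1 of them lower and 4 higher (ATP5ME, NDUFA1, NDUFB1 and UQCRB), beside 1.13% of all tested genes called higher and 1.48% lower. The genes named here as called were chosen after their values were seen. After the length and GC correction these medians were 0.31 and 0.26, beside 0.23 for the mitochondrial ribosomal protein genes. The summed level of the cytosolic set was 38467 and 35424 CPM in Ctrl and 50624 and 48895 CPM in shSTAU1, and that of the oxidative phosphorylation set was 5081 and 5014 CPM against 5837 and 6520 CPM. shSTAU1 replicate 2 was thus the highest library in the latter, as in the mitochondrial ribosomal set, and not in the cytosolic set. Differences between the 3 sets were not tested. Of 10 markers of the squamous epithelium 2 were called, both higher (KRT5 and SFN, background 1.13% higher and 1.48% lower), and 8 were positive and 2 negative (CDH1 at a log2 fold change of -0.29 and DSG3 at -0.76, adjusted p = 0.0731 for DSG3 by edgeR), with a summed level of 7555 and 7124 CPM in Ctrl and 11361 and 8709 CPM in shSTAU1, KRT5 being the most abundant. Of 10 fibroblast markers 5 were tested and 1, COL1A1, was called, as lower, while COL1A2 had a log2 fold change of 1.01 (adjusted p = 0.185, edgeR) and FAP one of 0.34, their summed level being 27.0 and 31.3 CPM in Ctrl and 26.1 and 17.4 CPM in shSTAU1. The part of these markers in the results above was not tested.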

How the data were processed

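Raw, unnormalized read counts of each gene were deposited by the authors for 4 libraries made with the TruSeq RNA Exome kit. The submitters' processing notes name Partek and hg38. The aligner, counting program, strand setting and annotation release are not given in the sources used here. Ensembl identifiers were matched to GENCODE 29 (58561 of 67008, 99.9% of the counts) and 42005 to a symbol. The groups were compared in edgeR 4.0.16 under R 4.3.3 (filterByExpr, TMM, quasi-likelihood test without a block, Benjamini-Hochberg adjustment over all 14303 tested genes, threshold 0.05). Standard errors given with edgeR values are the absolute log2 fold change divided by the square root of the F statistic of this test. The biological coefficient of variation was 19.1%. Replicates were not 1 library deposited again (chi-square over degrees of freedom, 25.4 in Ctrl and 61.6 in shSTAU1). Lengths and GC content are medians over the coding transcripts of a gene. The models were tested on simulated counts. Alternatives were DESeq2 1.42.0, limma-voom (limma 3.58.1), library size scaling, no filter, the replicate number as a block, a length and GC correction, other thresholds and leaving out each library. Members with few shared exon bases were a further alternative, chosen after seeing the data. Named members are the 5 with the largest log2 fold change in each direction and the 5 highest and 3 lowest per kb. Also named are the S18 family and those removed by the filter. From each further list, the 2 genes with the largest absolute log2 fold change are named. The members and lists were chosen with earlier results of these data known. One gene of a comparison list enters its counts only and is not reported here.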

Additional observations from a re-analysis of the deposited data

How the results depend on the processing

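The positive median of the members held under all alternatives run, while the number of members called did not. The median log2 fold change was between 0.22 and 0.35 except when a shSTAU1 library was left out, and leaving out each library in turn gave 0.12 to 0.46. Limited to members with under 10% shared exon bases, an alternative chosen after seeing the data, it was 0.31 (same strand) and 0.33 (either strand). Members called numbered 0 in the reported fit and with library size scaling, no filter, limma-voom or the length and GC correction, 6 with DESeq2, 5 at an adjusted p under 0.10, 6 at a fold of 1.5 with an unadjusted p under 0.05, and 0 to 26 without 1 library. Genes called over the whole table numbered 372 (161 higher, 211 lower), 1449 with DESeq2 (773 and 676), 404 with library size scaling (132 and 272), 11 without a filter, 193 with the length and GC correction (70 and 123), 1585 at an adjusted p under 0.10, 2098 at a fold of 1.5, and 0 to 2780 without 1 library. These last fits have 1 residual degree of freedom and assume that the lone library varies like the other group. They gave log2 fold changes of -0.022 to 0.20 for MRPL30, -0.042 to 0.0047 for MRPL55, -0.32 to 0.084 for MRPL58, -0.28 to 0.16 for MRPS26, -0.0030 to 0.56 for MRPL3, -0.13 to 0.78 for MRPL46 and -0.99 to 0.30 for MT-RNR1. Among the 32 named genes other than STAU1 refitted in this way, the sign of these 7 turned. STAU1 ran from -2.60 to -2.58, with an adjusted p of 0.490 without Ctrl replicate 1, where no gene was called. The replicate numbers are not stated to mark a batch, and deviations of same-numbered libraries correlated at 0.271 over all tested genes and 0.587 over the 4791 more abundant ones. Fitting the number as a replicate block called 4087 genes and 26 members (25 higher, 1 lower, beside 15.4% of all genes higher and 13.1% lower), and 3827 genes and 15 members (14 and 1, beside 15% and 11.8%) with the block and the length and GC correction. The cause of these differences was not tested.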

Other observations

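Over all protein-coding genes, few counts were more frequent where more than 50% of the exon bases are shared on the same strand, and not below that share. At most 10 counts over the 4 libraries were found in 32.7% of 17270 genes with no shared base, in 25.3% of 1503 genes with up to 50% shared, in 59.2% of 498 genes with 50% to 90% and in 89.7% of 634 genes with more. Of the 67008 identifiers 8447 are not in GENCODE 29, and 664 of these had a read. Whether reads of the untested members were placed there was not tested.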
